A study of Homo sapiens with 24 samples.

Results

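The 10 small nucleolar RNA (snoRNA) host genes ZFAS1, C6orf48, EPB41L4A-AS1, GAS5, SNHG1, SNHG5, SNHG6, SNHG7, SNHG8 and SNHG12 were followed across 2 esophageal adenocarcinoma cell lines, their Cas9 control and cGAS KO clones, and treatment with the MPS1 inhibitor (MPS1i) reversine. They were taken as the rows of the gene count table carrying these names, which gave 10 of 58735 genes with 1 identifier for each name. The list itself was chosen from earlier results of the same counts, with ZFAS1 and C6orf48 at its head. The comparison that led to it is not recorded. These 2 genes had the smallest edgeR p-values of the members for reversine against DMSO in both OE33 clones. The comparison in Cas9 cells, where those p-values were smaller, is treated as the one used. Its values are given as a description, with no p-value, as is the Cas9 against cGAS KO difference built on it. The cGAS KO comparison could also have led to the list, so nothing is read from its p-values and counts.

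OE33 and SK-GT-4 are cell lines derived from human esophageal adenocarcinoma. A Cas9 control clone, wild type for cGAS, and a clone with CRISPR-Cas9 knockout of cGAS, the cytosolic DNA sensor encoded by CGAS, were compared in each line. Every clone received 500 nM reversine, which causes chromosome missegregation, or DMSO for 48 h, giving 8 groups of 3 libraries, 1 from each of 3 batches. Because each genotype is treated here as 1 clone grown in 3 batches, loss of cGAS and other differences between clones cannot be told apart, and p-values measure the spread between these cultures.

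A snoRNA host gene is transcribed and spliced as a longer RNA whose introns carry snoRNAs. The intronic snoRNAs are released and guide chemical modification of ribosomal and spliceosomal RNA, while the spliced host RNA is often noncoding, is read by ribosomes and is degraded by nonsense-mediated decay (NMD) when translated. Many host genes begin with a 5′ terminal oligopyrimidine (5′TOP) tract, a C followed by C and T bases, as ribosomal protein genes do, and this tract links translation of an mRNA to the growth-controlling kinase mTOR. GAS5 was named for its accumulation in growth-arrested cells.

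The annotated starts show how far the members share that tract. Of the 10 members, 9 matched a RefSeq promoter on GRCh38.p14, C6orf48 under its current symbol SNHG32, and SNHG6 was not matched. The 30 bases below run 5′ to 3′ on the gene's strand from 10 bases before to 20 bases from the start on, and capitals mark the unbroken run of C and T that opens at the start.

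ZFAS1 (chr20:49278632-49278661, plus strand): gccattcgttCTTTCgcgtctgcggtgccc
C6orf48 (chr6:31834906-31834935, plus strand): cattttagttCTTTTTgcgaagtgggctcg
SNHG5 (chr6:85678714-85678743, minus strand): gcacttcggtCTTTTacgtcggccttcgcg
SNHG12 (chr1:28581854-28581883, minus strand): gcttcagcgcCCTTTCTCCCCgccgcattc
SNHG7 (chr9:136728165-136728194, minus strand): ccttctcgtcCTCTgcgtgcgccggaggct
SNHG1 (chr11:62855866-62855895, minus strand): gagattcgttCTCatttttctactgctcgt
SNHG8 (chr4:118278752-118278781, plus strand): ctcggcctttCacattcgggaagcgtcggg
EPB41L4A-AS1 (chr5:112160516-112160545, plus strand): tcatgaattcTgtcgggtcccaaaatacgt
GAS5 (chr1:173869026-173869055, minus strand): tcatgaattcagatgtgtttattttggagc

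ZFAS1, C6orf48, SNHG5 and SNHG12 open with a C followed by at least 4 further C or T bases. That is 4 of 9 members, beside 4.07% of 35116 promoters and 66.7% of 63 cytosolic ribosomal protein genes. The first base is a C in 7 of the 9, beside 14.7% of all promoters. A run of at least 6 C or T bases that begins with C within 10 bases of the start was found in C6orf48, SNHG7, SNHG8 and SNHG12, 4 of 9, beside 20.8% of all promoters. These are matches to letters on the gene's strand at 1 annotated start per gene, and the start in the count table's annotation lay 0 to 1259 bases from it, farthest for SNHG12. The distance was 464 bases for ZFAS1, 308 for C6orf48, 163 for GAS5 and at most 53 for the rest apart from SNHG12. With 1 start per gene, these matches cannot show that a member lacks the tract.

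The snoRNAs themselves are nearly absent from these libraries, which were made from poly(A) RNA. The table holds 25 snoRNA rows inside 9 of the hosts, on the host's strand, and 21 of them have no read in any library. The remaining 4 hold 139 reads in all, against 258623 for the 10 hosts. In ZFAS1, SNORD12B had 58 reads and SNORD12C 27, and SNORD12 had none. Their sequences are shown because they are the products of the gene at the head of the list, with the C box (TGATGA) and the last D box (CTGA) of these box C/D snoRNAs in capitals.

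SNORD12B (chr20:49280319-49280409, plus strand): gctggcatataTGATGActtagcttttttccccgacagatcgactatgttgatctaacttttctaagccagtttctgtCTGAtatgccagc
SNORD12C (chr20:49278940-49279028, plus strand): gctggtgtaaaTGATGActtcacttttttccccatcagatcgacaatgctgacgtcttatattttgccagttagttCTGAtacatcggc
SNORD12 (chr20:49280683-49280772, plus strand): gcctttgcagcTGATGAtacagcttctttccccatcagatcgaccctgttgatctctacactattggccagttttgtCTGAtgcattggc

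Libraries held 15561268 to 25284177 counts. CGAS was at 28.9 to 41.6 CPM (the gene's counts scaled to the normalised library size) in OE33 Cas9 libraries and at 2.31 to 2.82 CPM in OE33 cGAS KO libraries, except the cGAS KO DMSO library of batch 2 at 15.6 CPM. In SK-GT-4 it was at 14.7 to 26.1 CPM in Cas9 and 2.22 to 6.09 CPM in cGAS KO libraries. The summed level of 5 epithelial markers was 16300 to 22543 CPM in OE33 and 3677 to 19355 CPM in SK-GT-4, while 5 fibroblast markers reached at most 81.6 CPM and 5 leukocyte markers at most 34.5 CPM.

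All 10 members were expressed in every library, with at least 31 reads. Levels between genes were compared per kilobase of transcript (RPKM, computed from the counts). In OE33 Cas9 DMSO, GAS5 was at 32.6 ± 8.89 RPKM (SD, n = 3) and SNHG6 at 32.5 ± 5.88, with overlapping ranges. SNHG8 followed at 22.0 ± 2.06, below SNHG6 without overlap but overlapping GAS5, then C6orf48 at 19.1 ± 5.51, SNHG1 at 12.1 ± 3.52, ZFAS1 at 7.97 ± 2.09 and SNHG7 at 7.07 ± 0.740, each overlapping its neighbour in this order. SNHG5 (5.09 ± 0.545), EPB41L4A-AS1 (2.47 ± 0.205) and SNHG12 (1.12 ± 0.725) lay below them without overlap between neighbours. In SK-GT-4 Cas9 DMSO the order opened with SNHG6 at 52.3 ± 6.32, SNHG8 at 43.2 ± 6.79 and SNHG5 at 36.3 ± 7.05 RPKM. Neighbours overlapped down to C6orf48 at 24.8 ± 2.47, and SNHG1 at 15.7 ± 4.07 and the genes after it did not. SNHG12 was lowest in both lines, at 0.815 ± 0.0759 RPKM in SK-GT-4.

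**Figure D1:**
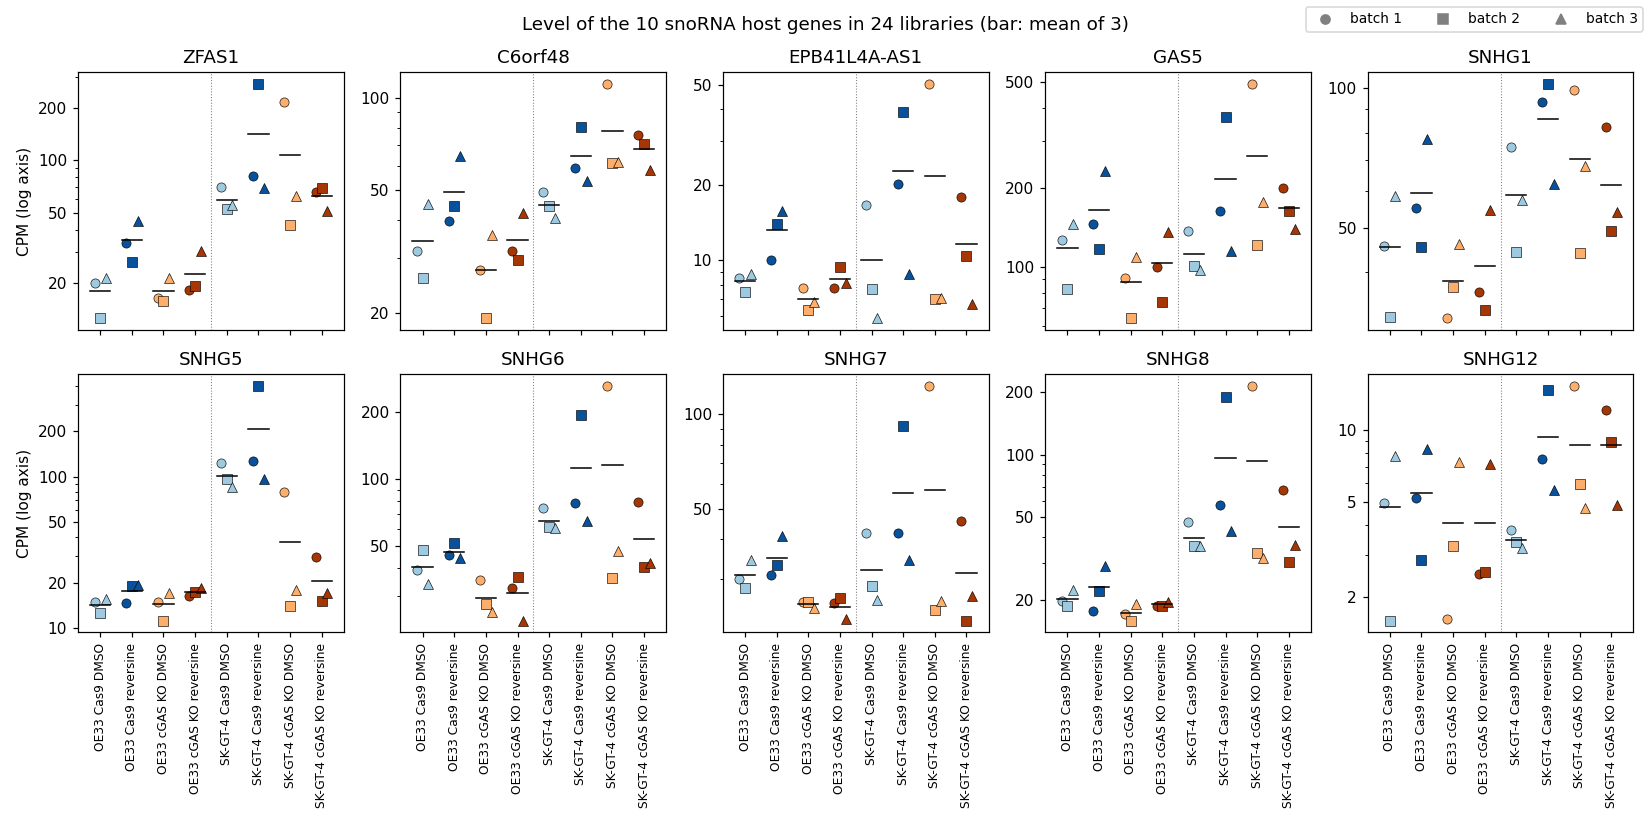
CPM (log axis, 1 panel per gene) in each of the 24 libraries, with the 8 groups on the x axis, 1 symbol per batch and a bar at the mean of 3. In SK-GT-4, the Cas9 reversine library of batch 2 and the cGAS KO DMSO library of batch 1 are the highest pair for 9 of 10 genes, while SNHG5 separates SK-GT-4 Cas9 from every other group.

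ZFAS1 and SNHG5 differed between the untreated Cas9 clones of the lines. SNHG5, whose RNA carries SNORD50B, was at 14.8, 12.6 and 15.5 CPM in OE33 and at 124, 96.2 and 85.4 CPM in SK-GT-4. The groups did not overlap, and the log2 fold change OE33 minus SK-GT-4 was -2.83 ± 0.52 (SE, adjusted p = 0.000124, edgeR quasi-likelihood test). ZFAS1 was at 19.97, 12.5 and 21.1 CPM in OE33 and 70.7, 52.4 and 55.8 CPM in SK-GT-4, a log2 difference of -1.74 ± 0.48 (edgeR adjusted p = 0.00692). A call needed an adjusted p no higher than 0.01. In all, 2 of 10 members passed it, beside 22% of the 25181 genes tested, and the median log2 difference was -0.38 for the members and -0.14 for all genes. Leaving out any batch took ZFAS1 above the threshold (edgeR adjusted p = 0.0128 to 0.0360) and left SNHG5 called. The OE33 Cas9 DMSO libraries also enter the comparison taken to have chosen the members, so nothing is read from these p-values and counts.

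Reversine against DMSO in OE33 Cas9 cells gave values above 0 for all 10 members, highest for ZFAS1. ZFAS1, an RNA antisense to the 5′ end of ZNFX1, went from 19.97, 12.5 and 21.1 CPM in DMSO to 33.8, 26.4 and 45.2 CPM in reversine for batches 1, 2 and 3. The groups did not overlap and every batch was higher, by 0.76 to 1.09 on the log2 scale, with a fitted log2 fold change of 0.94 ± 0.15 (SE) or 1.92-fold. C6orf48 went from 31.8, 25.9 and 45.3 CPM to 39.6, 44.5 and 64.5 CPM. Its groups overlapped, but each batch was higher, with a log2 fold change of 0.51 ± 0.13. EPB41L4A-AS1, which lies within EPB41L4A on the other strand, went from 8.54, 7.49 and 8.78 CPM to 10.05, 13.9 and 15.8 CPM, without overlap and by 0.64 ± 0.18 on the log2 scale. GAS5 went from 127, 82.6 and 145 CPM to 145, 118 and 231 CPM, a log2 fold change of 0.43 ± 0.11 with overlapping groups.

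The other 6 members had log2 fold changes from 0.14 (SNHG8) to 0.36 (SNHG1). The median over the 10 members was 0.32, beside 0.0051 over all genes tested. edgeR called 0 of 10 members, beside 0.0049% of 20426 genes, and 5 of 10 had an unadjusted p under 0.05, beside 6.95% of genes. DESeq2 called 1 member, ZFAS1, beside 0.154% of genes, and edgeR with a block for each genotype and batch called the same member beside 0.455%. Since this comparison is taken as the one that chose the members, nothing is read from these counts.

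In OE33 cGAS KO cells the same comparison gave smaller values. ZFAS1 was at 16.2, 15.8 and 21.4 CPM in DMSO and 18.1, 19.1 and 30.4 CPM in reversine, higher in each batch but with overlapping groups and a log2 fold change of 0.31 ± 0.15 (edgeR adjusted p = 0.727). C6orf48, at 27.4, 19.2 and 35.8 CPM and then 31.8, 29.7 and 42.1 CPM, had the highest value of the members, 0.34 ± 0.13 (edgeR adjusted p = 0.623). The median over the members was 0.17 and 8 of 10 were above 0. edgeR called 0 of 10, beside 0% of genes, with 1 of 10 at an unadjusted p under 0.05 beside 6.95%, and DESeq2 called 0 of 10 beside 0.0598%. ZFAS1 and C6orf48 had the smallest edgeR p-values of the members here too, so nothing is read from these p-values and counts.

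The reversine effect in OE33 Cas9 minus that in cGAS KO cells was 0.64 ± 0.21 on the log2 scale for ZFAS1, and between 0.01 (SNHG5) and 0.39 (EPB41L4A-AS1) for the others. The median was 0.21, beside 0.00 for all genes. edgeR called 0 of 10 members beside 0% of genes, 1 of 10 had an unadjusted p under 0.05 beside 1.88%, and DESeq2 called 0 of 10 beside 0%. Nothing is read from these counts either, since the difference is built on the comparison taken to have chosen the members.

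**Figure D2:**
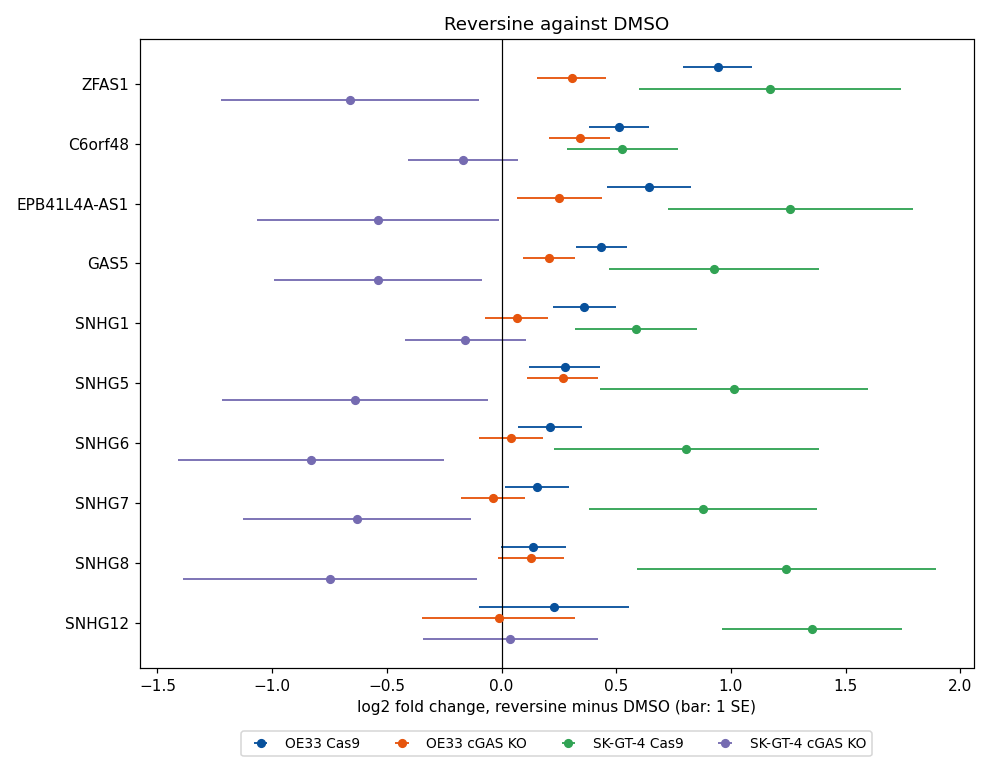
Log2 fold change of reversine against DMSO (x axis, bars 1 SE) for each member in the 4 clones. OE33 Cas9 values run from 0.14 to 0.94, while the SK-GT-4 values have wide errors, with medians of 0.97 in Cas9 and -0.58 in cGAS KO cells.

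SK-GT-4 gives the same comparisons in samples independent of OE33, but 2 of its 12 libraries stand apart. In the Cas9 reversine library of batch 2 the members were a median of 1.59 above their cell line median on the log2 CPM scale, and in the cGAS KO DMSO library of batch 1 they were 1.69 above it. The other 10 libraries lay between -0.42 and 0.40. ZFAS1 reached 275 and 216 CPM in these 2 libraries, against 43.0 to 81.8 CPM in the other 10.

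Cytosolic ribosomal protein genes moved with the members in these libraries, with medians of 1.24 and 1.43, against -0.72 to 0.18 in the other 10. The 10 NMD factors were lower, with medians of -0.50 and -0.95, against -0.40 to 0.22 in the other 10. In the library at -0.40, cGAS KO DMSO of batch 3, the members were not high, at -0.29. Gene length moved with them as well. Short protein-coding genes (under 1500 bases) minus long ones (over 6000 bases) stood at 1.45 and 1.71 in the same 2 libraries and between -0.55 and 0.10 in the other 10. The part of length, of NMD or of RNA quality in the members' values was not tested.

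With all libraries, the members' median log2 fold change under reversine was 0.97 in SK-GT-4 Cas9 cells and -0.58 in cGAS KO cells. By batch it was 0.26, 1.96 and 0.28 in Cas9, and -1.43, 0.18 and -0.09 in cGAS KO. ZFAS1 went from 70.7, 52.4 and 55.8 CPM to 81.8, 275 and 69.4 CPM in Cas9 cells, higher in each batch, with a log2 fold change of 1.17 ± 0.57 (edgeR adjusted p = 0.981). SNHG12, the least expressed member, went from 3.83, 3.41 and 3.19 CPM to 7.57, 14.8 and 5.62 CPM, without overlap, at 1.35 ± 0.39 (edgeR adjusted p = 0.981). Without the 2 libraries, the median was 0.21 in Cas9 and 0.12 in cGAS KO cells, ZFAS1 in Cas9 cells was at 0.29, and SNHG12 was at 0.91. These are descriptions, since the libraries were singled out by the members' own levels.

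Under reversine, SK-GT-4 Cas9 cells had 0 of 10 members called by edgeR beside 0% of 22782 genes, with 3 of 10 at an unadjusted p under 0.05 beside 2.48%, and DESeq2 called 0 of 10 beside 0.0131%. In the cGAS KO clone edgeR called 0 of 10 beside 0%, 0 of 10 had an unadjusted p under 0.05 beside 1.39%, and DESeq2 called 0 of 10 beside 0%. For the Cas9 minus cGAS KO difference of the effect, edgeR called 0 of 10 beside 0%, 4 of 10 had an unadjusted p under 0.05 beside 2.41%, and DESeq2 called 0 of 10 beside 0%. The median of that difference was 1.57 with all libraries and 0.17 without the 2. A test of the reversine effect in Cas9 cells between the lines, added after the counts were seen, called 0 of 10 members beside 0% of genes with edgeR, with 0 of 10 at an unadjusted p under 0.05 beside 1.73%. That test is built on the comparison taken to have chosen the members, so nothing is read from its counts.

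In reversine, GAS5 and SNHG6 were lower in the cGAS KO clone of OE33 than in its Cas9 clone. GAS5 was at 145, 118 and 231 CPM in Cas9 and 100.5, 74.2 and 136 CPM in cGAS KO, with overlapping groups but lower in each batch, and fell by 0.67 on the log2 scale (SE 0.11, edgeR adjusted p = 0.00183). SNHG6 was at 45.7, 51.8 and 44.6 CPM in Cas9 and 32.6, 36.5 and 23.2 CPM in cGAS KO, without overlap, and fell by 0.66 (SE 0.14, edgeR adjusted p = 0.00854). These were the 2 of 10 members called by edgeR, beside 2.84% of genes. DESeq2 called 6 of 10, beside 7.79%. ZFAS1 was at -0.66 ± 0.15 (edgeR adjusted p = 0.0121) and SNHG5 at -0.03 ± 0.15 (edgeR adjusted p = 0.940). The median was -0.53 for the members and -0.02 for all genes. The Cas9 reversine libraries also enter the comparison taken to have chosen the members, so nothing is read from these p-values and counts. Leaving out batch 2 or batch 3, or the batch block, left 0 members called, and leaving out batch 1 left GAS5 alone. The tested genes within 5 Mb were also below 0 here, with a median of -0.28 for the 33 around GAS5 and of -0.28 for the 19 around SNHG6. Copy number of these regions was not tested.

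In DMSO all 10 members of OE33 had a negative log2 fold change, from -0.02 (ZFAS1) to -0.49 (SNHG6), with a median of -0.26 beside -0.01 for all genes. edgeR called 0 of 10 beside 1.47% of genes, with 4 of 10 at an unadjusted p under 0.05 beside 17.5%. DESeq2 called 1, GAS5, beside 5.42%. GAS5 was at 127, 82.6 and 145 CPM in Cas9 and 91.3, 64.2 and 109 CPM in cGAS KO, lower in each batch, at -0.45 ± 0.11 (edgeR adjusted p = 0.0317). The Cas9 DMSO libraries also enter the comparison taken to have chosen the members, so nothing is read from these p-values and counts. In batch 2, whose cGAS KO DMSO library held CGAS at 15.6 CPM, ZFAS1, SNHG1 and SNHG12 were higher in the cGAS KO than in the Cas9 library, by 0.33, 0.22 and 1.00 on the log2 CPM scale. Without that library 0 members were called and their median was -0.29. Whether the clone difference depends on treatment is the same contrast as the reversine effect between OE33 clones given above. It is built on the comparison taken to have chosen the members, so no test of that dependence is drawn from it.

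SNHG5 set the SK-GT-4 clones apart. In DMSO it was at 124, 96.2 and 85.4 CPM in Cas9 and 79.3, 14.0 and 17.9 CPM in cGAS KO cells. In reversine it was at 128, 399 and 96.2 CPM in Cas9 and 29.5, 15.04 and 17.2 CPM in cGAS KO cells. The clones did not overlap in either treatment, and outside batch 1 the cGAS KO libraries lay near the OE33 level of 11.2 to 19.3 CPM. The log2 fold change was -1.70 ± 0.59 in DMSO (edgeR adjusted p = 0.150) and -3.35 ± 0.64 in reversine (edgeR adjusted p = 0.0140). Without the 2 libraries that stand apart it was -2.48 in DMSO and -2.37 in reversine. No test is drawn from these values, since the libraries were singled out by the levels of the members, SNHG5 included, and 1 of them is the cGAS KO library with the highest SNHG5. The 29 tested genes within 5 Mb of SNHG5 stood at a median of -0.72 in DMSO and -0.49 in reversine on the log2 scale, against 0.03 and -0.03 for all genes. Copy number of the region was not tested.

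Over the 10 members in SK-GT-4, the median clone difference was 0.74 in DMSO and -0.98 in reversine, beside 0.03 and -0.03 for all genes, and -0.04 and -0.18 without the 2 libraries. In DMSO edgeR called 0 of 10 members beside 1.76% of genes, 4 of 10 had an unadjusted p under 0.05 beside 17.5%, and DESeq2 called 0 of 10 beside 8.09%. In reversine edgeR called 0 of 10 beside 1.41%, 1 of 10 had an unadjusted p under 0.05 beside 18.4%, and DESeq2 called SNHG5 beside 7.75%.

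The clone differences of SNHG5 and C6orf48 had unlike values in the lines. A test of the cGAS KO against Cas9 difference, OE33 minus SK-GT-4 and averaged over treatments, was added after the counts were seen. It called 2 of 10 members beside 5.33% of genes. SNHG5 was at 2.52 ± 0.46 on the log2 scale (edgeR adjusted p = 0.000841) and C6orf48 at -0.84 ± 0.20 (edgeR adjusted p = 0.00881). The OE33 Cas9 libraries in this test also enter the comparison taken to have chosen the members. Nothing is therefore read from its p-values and counts. In SK-GT-4, C6orf48 was at 49.4, 44.4 and 40.5 CPM in Cas9 DMSO and 111, 61.4 and 62.0 CPM in cGAS KO DMSO, higher in each batch, the first being from a library that stands apart. In reversine it was at 59.1, 80.6 and 53.7 CPM in Cas9 and 75.6, 70.6 and 58.0 CPM in cGAS KO, higher in 2 batches and lower in 1, with a log2 fold change of 0.07 ± 0.24 (edgeR adjusted p = 0.908). In OE33 it was lower in the cGAS KO clone in each batch of both treatments. The 154 tested genes within 5 Mb of C6orf48 had medians of -0.21 in DMSO and -0.22 in reversine in OE33, and of 0.16 and 0.22 in SK-GT-4. Copy number of this region was not tested. Leaving out batch 3 left 0 members called, and leaving out batch 1 left SNHG5 alone.

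**Figure D3:**
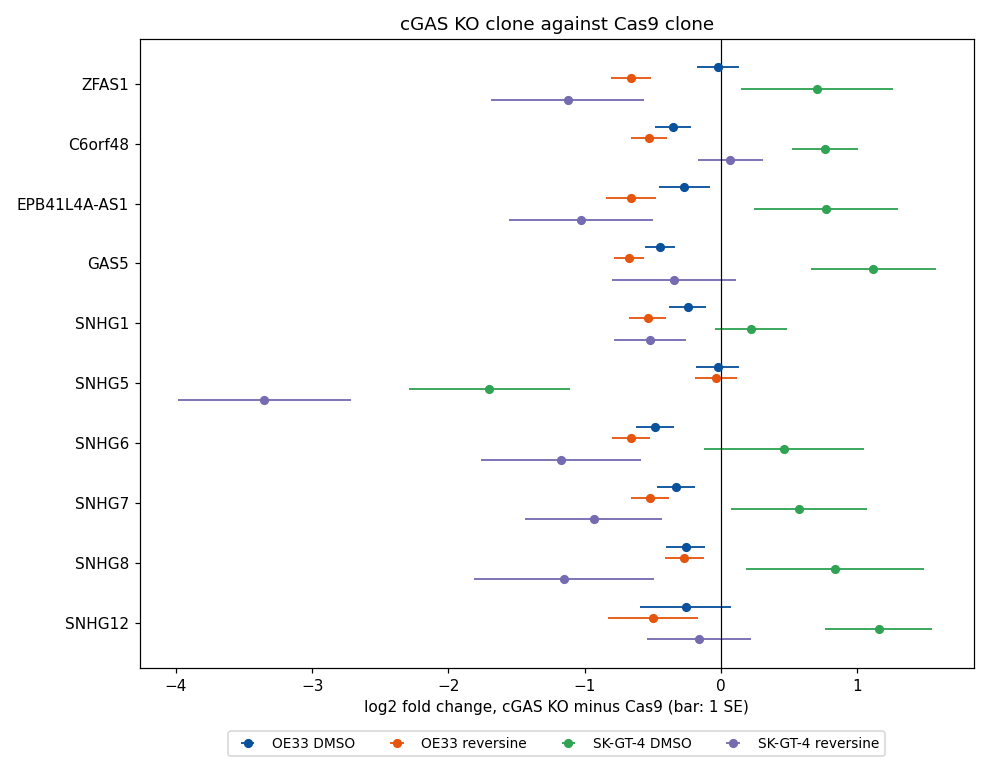
Log2 fold change of the cGAS KO against the Cas9 clone (x axis, bars 1 SE) for each member in both lines and treatments. SNHG5 in SK-GT-4 is lowest at -1.70 and -3.35, and OE33 values lie between -0.67 and -0.02.

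Gene groups of the same pathway, and a list of ATF4 stress response genes, were read beside the members. In OE33 Cas9 cells under reversine, 35 other noncoding snoRNA host genes that were tested had a median log2 fold change of 0.16 and 235 protein-coding hosts one of -0.01. The 78 cytosolic ribosomal protein genes had a median of 0.09, 10 NMD factors one of -0.01, and 8 core proteins of the snoRNA particles one of -0.13. edgeR called 0 genes of these lists there, and at an unadjusted p under 0.05 there were 1 noncoding host, 15 protein-coding hosts, 4 ribosomal protein genes, 0 NMD factors and 1 particle protein gene. The 10 genes of the ATF4 stress response had a median of 0.37, with 6 at an unadjusted p under 0.05 and 0 called. Over all genes, 6.95% passed that unadjusted p. This comparison is taken as the one that chose the members. The lists were also chosen with earlier results known, so nothing is read from these counts.

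Between the OE33 clones in reversine, where 2.84% of all genes were called, 6 of 78 ribosomal protein genes were called lower and 0 higher, with RPS28 lowest at -1.03 (edgeR adjusted p = 0.00342), and 5 of 16 other 5TOP genes were called lower, with the translation initiation factor gene EIF3H lowest at -0.76 (edgeR adjusted p = 0.00208). The medians were -0.37 and -0.49. Copy number of the region around EIF3H was not tested. The median deviation of the ribosomal protein genes from their cell line median was -0.61 and -0.64 in the cGAS KO libraries of batch 3 (DMSO and reversine) and between -0.12 and 0.14 in the other 4 cGAS KO libraries, and that of the other 5TOP genes was -0.59 and -0.60 against -0.16 to 0.02. Short minus long genes were at -0.34 and -0.32 in the same batch 3 libraries, and the part of length in these counts was not tested. Of the 10 ATF4 stress genes 2 were called lower and 0 higher, with a median of -0.44 and DDIT4 lowest at -2.07 (edgeR adjusted p = 0.00198). The other noncoding hosts had 0 of 35 called and a median of -0.45, with 10 lower at an unadjusted p under 0.05, and the protein-coding hosts had 2 of 235 called higher, 2 lower and a median of -0.09. Of the 10 NMD factors and 8 particle proteins 0 were called, or passed an unadjusted p of 0.05. The lists were chosen with earlier results known, and the Cas9 reversine libraries also enter the comparison taken to have chosen the members. Nothing is therefore read from these p-values and counts.

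Across the 12 libraries of a line the members rose and fell together to unequal degrees. Pearson r between a member's log2 CPM and the mean of the members, which contains it, was at least 0.67 in both lines for 9 members. For SNHG6 it reached 0.97 in SK-GT-4 but 0.27 in OE33. Among 11719 genes with a mean of at least 1 CPM in both lines, the non-member genes most like the members by the smaller r of the lines were PVT1 (0.86), TAF1D (0.86), ATF4 (0.85), TNNC1 (0.83), SNHG17 (0.81), DDIT3 (0.79), MFSD14C (0.79), GLI4 (0.78), GABPB1-AS1 (0.76) and RCN1 (0.76). ATF4 encodes the stress-response transcription factor and DDIT3 one of its targets, and SNHG17 is itself a snoRNA host gene. Libraries share batch and depth, and in SK-GT-4 the values rest largely on the 2 libraries that stand apart, so these are descriptions.

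Reads from the members can be shared with overlapping genes on the other strand, since the strand setting of the counting is not given in the sources used here. Among such overlaps, ZFAS1 shares 249 bases with ZNFX1, SNHG7 overlaps FAM69B by 2685, EPB41L4A-AS1 overlaps EPB41L4A by 3751 and GAS5 overlaps ZBTB37 by 801.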

How the data were processed

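Poly(A) RNA-seq counts per gene, as deposited by the authors, were used for 24 libraries. The submitters' processing notes name HISAT2 2.0.5, featureCounts 1.5.0 and GRCh38. The annotation release, strand setting and handling of multimapped reads are not given in the sources used here. Columns without a sample numbered 0.

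Genes with a total of at least 5 counts in a line, nonzero in at least 4 libraries, were tested with edgeR 4.0.16 (R 4.3.3), using TMM factors and the quasi-likelihood test with batch as a block within a line, or all 24 libraries without a block between lines. Benjamini-Hochberg adjustment ran over all genes tested (20426, 22782 and 25181), and a call needed an adjusted p of at most 0.01. SK-GT-4 libraries varied more than OE33 libraries (biological coefficient of variation 34.0% against 14.97%), so differences in SK-GT-4 were less precise. CPM used TMM factors over all libraries, and log2 CPM a prior count of 2. DESeq2 1.42.0 was an alternative. The edgeR fits within each line were tested on simulated data for the reversine comparisons; the other fits were not.

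The labels give the batch number. Residual correlation of samples with the same genotype and number had a median of 0.69 (OE33) or 0.44 (SK-GT-4), against -0.32 and -0.26 for different numbers. Between genotypes it was 0.52 and 0.27 for the same number, against -0.29 and -0.06 for different numbers. Batch was kept as a block. In SK-GT-4 the same-number pairs between genotypes ran from -0.70 to 0.59, so the block is less well founded for its clone comparisons. No libraries were duplicates. The 10 members, the gene lists and the motifs were chosen with earlier results of these data known. Named genes are the members, the snoRNA rows inside them, CGAS, the extreme genes of a described list and the 10 genes most like the members. Starts and snoRNA sequences come from RefSeq (GRCh38.p14) and GRCh38. The tests between cell lines of the reversine and the clone differences, and the fits without either or both of the 2 SK-GT-4 libraries, were chosen after seeing the counts. Not every gene overlapping a member is reported here.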

Additional observations from a re-analysis of the deposited data

Results flagged for a closer look

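The cGAS KO against Cas9 difference in SNHG5 differed between the lines, by 2.52 on the log2 scale (OE33 minus SK-GT-4, edgeR adjusted p = 0.000841). For C6orf48 the same difference between lines was -0.84 (edgeR adjusted p = 0.00881). Both values use the OE33 Cas9 libraries of the comparison taken to have chosen the members, so nothing is read from these p-values. In DMSO, C6orf48 and GAS5 were lower in the cGAS KO clone in 3 of 3 batches of OE33 and higher in 3 of 3 of SK-GT-4, with a median over the SK-GT-4 batches of 0.61 for C6orf48 and 0.84 for GAS5 on the log2 CPM scale. Batch 1 of the SK-GT-4 cGAS KO DMSO group is one of the libraries that stand apart. In reversine the SK-GT-4 batches were mixed, with 2 higher and 1 lower for each gene, from -0.19 to 0.35 for C6orf48 and from -1.17 to 0.29 for GAS5, and the lowest is from batch 2, whose Cas9 library stands apart. For GAS5 the fitted difference between lines was -0.93 (edgeR adjusted p = 0.110), so it was not called. Groups of 3 libraries are too small for an outlier test.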

How the results depend on the processing

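The count of members called moved in 31 of 141 alternatives and direction reversed in none of the called results. Of 1410 values of a single member under an alternative, 83 changed sign, none of them a called value. In OE33 Cas9 under reversine, no filter, DESeq2 and a replicate block per genotype and batch each called 1 member where the main test called 0, and leaving out a batch gave 0 to 0. For the OE33 clones in DMSO, an adjusted p of at most 0.05 and DESeq2 each called 1, and leaving out a batch gave 0 to 0. For the OE33 clones in reversine, with 2 called, an adjusted p of at most 0.05 called 7, filterByExpr 1, no filter 6, no replicate block 0, DESeq2 6, and the fit without OE33 cGAS KO DMSO replicate 2 called 5, while leaving out a batch gave 0 to 1. For the SK-GT-4 clones in reversine, with 0 called, the threshold of 0.05, no filter, total counts, DESeq2 and the fits without either or both of the libraries that stand apart each called 1, and leaving out a batch gave 0 to 1. In DMSO the fits without the Cas9 reversine library, or without both, called 1, and leaving out a batch gave 0 to 0. For OE33 against SK-GT-4, with 2 called, leaving out a batch gave 1 to 1. For the clone difference between lines, with 2 called, no replicate block called 1, the fit without 3 libraries 4, and leaving out a batch gave 0 to 3. The causes of these moves were not tested. The replicate block per genotype and batch, and the fit with no replicate block, changed no other count by more than 1.5 times. The 2 SK-GT-4 libraries were singled out by the members' own levels, so the calls made without them carry no support. Groups hold 3 libraries and SK-GT-4 varied more than OE33 (coefficient of variation 34.0% against 14.97%), and no smallest detectable difference was computed.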
